A study of Homo sapiens with 12 samples.

Results

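The calcineurin and NFAT pathway genes were examined in HK-2 cells, an immortalised line of human proximal tubule cells from the kidney, which had been given CsA or vehicle for 12 h or 48 h. The set held 10 genes: the calcineurin subunits PPP3CA, PPP3CB, PPP3CC and PPP3R1, the transcription factors NFATC1, NFATC3, NFATC4 and NFAT5, and the calcineurin regulators RCAN1 and RCAN3. They were picked by name out of the 19775 gene symbols that had a probe set of their own on the array, at a time when earlier results of these arrays were known. The 10 genes had 35 probe sets. Each gene was read from its brightest probe set by the mean of all 12 arrays, and its other probe sets served as a check.

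Calcineurin is a phosphatase switched on by calcium and calmodulin. It pairs 1 catalytic subunit (encoded by PPP3CA, PPP3CB or PPP3CC) with a calcium-binding regulatory subunit, which PPP3R1 encodes outside the testis. Active calcineurin removes phosphates from the NFATC factors, which then enter the nucleus, while kinases such as GSK3 and DYRK send them back out. NFAT5 shares the DNA-binding domain of this family, but it is not a calcineurin substrate and is known for its response to high salt, which matters in the kidney. RCAN proteins bind calcineurin and restrain it, and one form of RCAN1 is itself a classical NFAT target, so that its level is often used as a readout of calcineurin activity. Cyclosporine A inhibits calcineurin through its complex with cyclophilin.

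The 4 groups were control 12 h, CsA 12 h, control 48 h and CsA 48 h, with 3 arrays in each, which the labels call biological replicates without saying what a number stands for. CsA is taken to be cyclosporine A, whose dose the labels do not state. Cells of every group grew in the same medium, which contained insulin, transferrin, selenite, EGF and the glucocorticoid hydrocortisone, and were treated when close to confluent. HK-2 is a single immortalised line, so the replicates do not stand for different donors. RNA came from whole wells, in which fewer cells with a transcript and less transcript per cell cannot be told apart.

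Of 14 markers of proximal tubule or HK-2 cells with a probe set, 6 were above 4 on every array (PAX8, CDH6, KRT8, KRT18, KRT19 and VIM), while the transporter and receptor genes AQP1, LRP2, CUBN and SLC34A1 had group means of at most 3.12. None of 10 leukocyte markers was above 4 on all arrays, and PTPRC (CD45) had group means between 2.92 and 3.00. Above 4 on all arrays were also 5 of 8 fibroblast or pericyte markers (COL1A1, DCN, LUM, RGS5 and THY1), 1 of 8 endothelial (PECAM1), 2 of 4 podocyte (PODXL and SYNPO) and 2 of 7 distal nephron or collecting duct markers (AQP2 and SCNN1A). The median log2 value of an array was 2.85 to 2.96. Replicates correlated less at 48 h than at 12 h, with a lowest correlation within a group of 0.992 at 12 h, 0.966 in 48 h controls and 0.929 between replicates 1 and 3 of CsA 48 h. CsA 48 h replicate 3 lay farthest from its group mean, by a median of 0.25 log2 units over genes, beside 0.07 to 0.20 for the other arrays. Same-numbered CsA and control arrays of a time deviated together (r between 0.37 and 0.78), so differences within a numbered pair are given as well.

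All values are log2 expression values. A value of 4 was used as the floor, and a gene was tested if its probe set was above the floor on all 3 arrays of at least 1 group, which 10508 genes were. Of the 10 members, 9 passed, and NFATC4 did not. A gene was called when its Benjamini-Hochberg adjusted p from limma, over all tested genes, was below 0.05.

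CsA against control gave no called member at either time, and time in culture gave 3 calls among the members. NFAT5 was higher at 48 h than at 12 h in control and under CsA, and RCAN3 was 4.03-fold lower at 48 h than at 12 h in control. The plot of levels by array shows these shifts and the spread at 48 h.

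**Figure D1:**
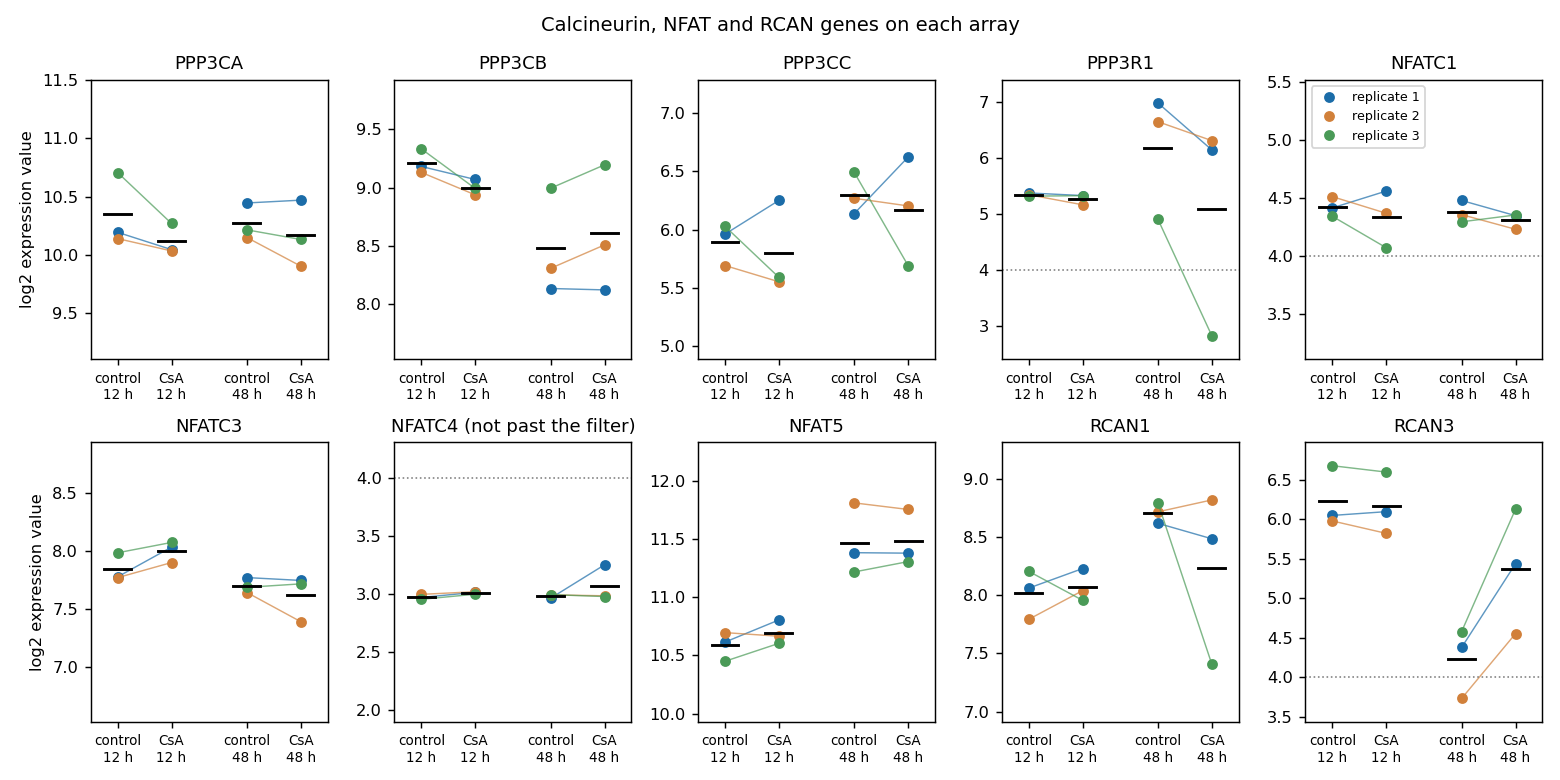
Log2 expression of the 10 genes on each of the 12 arrays (vertical axis, log2, its range differs by panel), by group on the horizontal axis. Points are arrays, coloured by replicate number, thin lines join the numbered pairs of a time, black bars are group means and the dotted line is the floor of 4. NFAT5 sits above 11.2 on all 48 h arrays and below 10.9 on all 12 h arrays, and RCAN3 in control falls from at least 5.98 to at most 4.58.

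The catalytic subunits were detected throughout. PPP3CA was at 10.19, 10.14 and 10.71 in control 12 h (replicates 1 to 3), at 10.05, 10.03 and 10.27 in CsA 12 h, at 10.45, 10.15 and 10.22 in control 48 h and at 10.47, 9.90 and 10.13 in CsA 48 h. The groups overlapped, and neighbouring means in the order control 12 h, control 48 h, CsA 48 h, CsA 12 h differed by less than the larger of their SDs. CsA was lower than control in all 3 pairs at 12 h, with differences of -0.15, -0.11 and -0.44. Their mean of -0.23 (SE 0.18) was not called (limma, adjusted p = 1.00), with a 95% confidence interval from -0.64 to 0.18, and it was -0.05 without control 12 h replicate 3, the highest array. With the replicate number added as a block the SE was 0.096 and the interval, unadjusted for the number of genes, from -0.457 to -0.004. It was not called there either (limma, adjusted p = 0.68). The other 2 probe sets of PPP3CA were also lower under CsA at 12 h, at -0.19 and -0.16.

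PPP3CB, the second widely expressed catalytic subunit, was at 9.18, 9.13 and 9.33 in control 12 h and at 9.07, 8.94 and 8.99 in CsA 12 h. It was the one member whose CsA and control arrays did not overlap at 12 h, where 11.9% of all tested genes did not. The difference of -0.22 (SE 0.27) was not called (limma, adjusted p = 1.00). The other PPP3CB probe set overlapped at 12 h, with pairs of 0.08, -0.13 and -0.17 and a mean of -0.07. At 48 h PPP3CB spread widely in both groups, with 8.13, 8.31 and 8.99 in control and 8.12, 8.51 and 9.20 in CsA, and replicate 3 was highest in each. CsA minus control there was 0.13 (SE 0.27). In the other PPP3CB probe set it was 0.28 (SE 0.13), with pairs of 0.02, 0.48 and 0.33, and was not called over all probe sets. In the first probe set every 48 h control array was below every 12 h control array. Its mean change was -0.74 (SE 0.27), short of the threshold (limma, adjusted p = 0.065). Leaving out control 48 h replicate 3 gave -0.995 (adjusted p = 0.020), and leaving out CsA 48 h replicate 1 or replicate 3, which changes only the estimate of spread, gave adjusted p-values of 0.037 and 0.018. Leaving out control 48 h replicate 1 moved the change the other way, to -0.56. Of 21 alternative settings 5 called it, and the adjusted p reached 0.21 in the others. The other PPP3CB probe set changed by -0.79 with time in controls (SE 0.13, adjusted p = 0.0033 over all probe sets) and by -0.44 under CsA (adjusted p = 0.047). The sign of the change with time was thus the same in both probe sets and both treatments, and in controls the estimates of the 2 probe sets differed by less than the SE of either.

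PPP3CC, a catalytic subunit best known from testis and brain, ranged from 5.55 to 6.62. It was at 5.96, 5.69 and 6.03 in control 12 h and at 6.14, 6.27 and 6.49 in control 48 h, which do not overlap, and at 6.25, 5.55 and 5.59 in CsA 12 h and 6.62, 6.20 and 5.69 in CsA 48 h, which do. The change with time was 0.41 (SE 0.25) in control and 0.37 (SE 0.25) under CsA, and neither was called. The second probe set of PPP3CC past the floor changed by 0.04 and 0.07. It lay between 4.91 and 5.15 on all arrays, with SDs at 12 h of 0.005 in control and 0.007 in CsA. Whether so flat a probe set could show a shift was not tested.

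PPP3R1 showed how much 1 array could move a 48 h value. At 12 h its 6 arrays lay between 5.16 and 5.37. At 48 h control was at 6.98, 6.64 and 4.90 and CsA at 6.14, 6.30 and 2.82, so that replicate 3 was the lowest in each group and lay below the floor under CsA. CsA was lower than control in all 3 pairs, with differences of -0.84, -0.34 and -2.08. The mean difference of -1.09 (SE 0.81) was not called by limma, without the replicate block (adjusted p = 0.999) or with it (0.35). Without CsA 48 h replicate 3 the difference was 0.05, and without both replicate 3 arrays at 48 h it was -0.59. The other PPP3R1 probe set stayed between 4.91 and 5.60 on all arrays and differed by 0.07 at 48 h. Its SD in control 48 h was 0.015 and its change with time in control 0.01. Whether so flat a probe set could show such a difference was not tested.

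**Figure D2:**
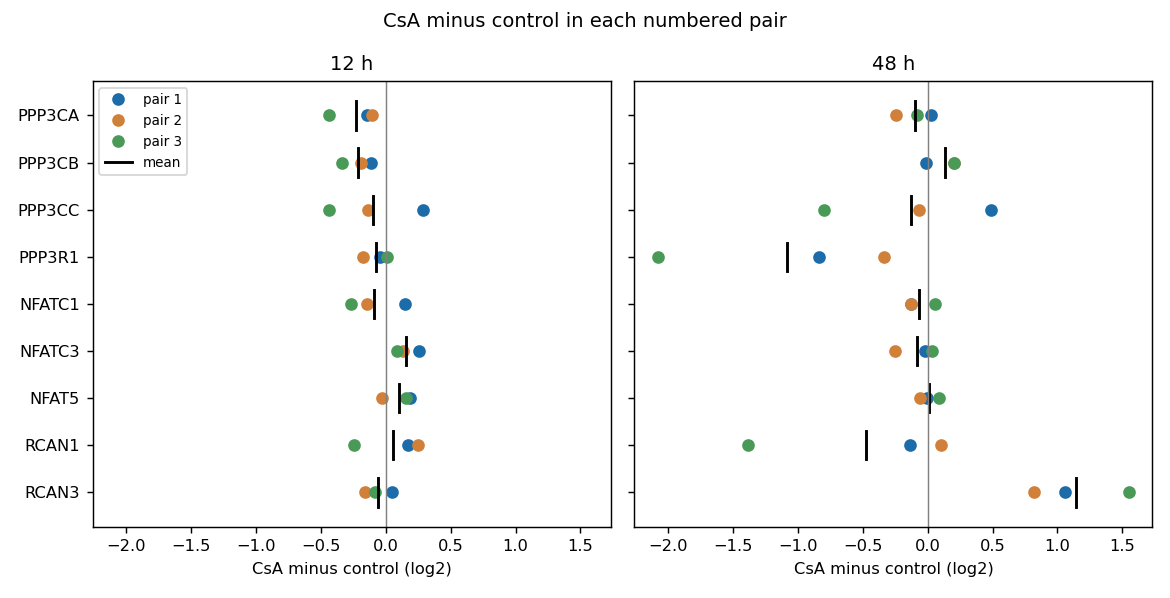
CsA minus control within each numbered pair (horizontal axis, log2) for the 9 tested genes, at 12 h (left) and 48 h (right). Points are pairs and black bars their means. At 48 h RCAN3 lies above 0 in all 3 pairs (0.82 to 1.55), while PPP3R1 and RCAN1 reach -2.08 and -1.39 in pair 3.

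Of the NFATC factors, NFATC3 was the one with several probe sets past the floor. NFATC1, a factor that amplifies its own expression in lymphocytes and osteoclasts, lay between 4.07 and 4.56 on all 12 arrays. Its group means, from 4.31 in CsA 48 h to 4.42 in control 12 h, differed between neighbours by less than their SDs. CsA minus control was -0.09 (SE 0.13) at 12 h and -0.07 (SE 0.13) at 48 h, with 95% confidence intervals from -0.37 to 0.19 and from -0.34 to 0.21. The other 4 NFATC1 probe sets were below the floor on every array. NFATC4, which is known mainly from heart, muscle and neurons, lay between 2.95 and 3.25, and none of its 3 probe sets was above the floor on any array.

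NFATC3, a factor found in many tissues, was at 7.78, 7.77 and 7.98 in control 12 h and at 8.03, 7.90 and 8.07 in CsA 12 h. CsA was higher in all 3 pairs, by 0.26, 0.13 and 0.09, a mean of 0.16 (SE 0.12) that was not called (limma, adjusted p = 1.00). The 3 other NFATC3 probe sets past the floor differed at 12 h by 0.04, 0.01 and -0.06. The mean of all 6, of which 4 were past the floor, differed by 0.02. At 48 h control was at 7.77, 7.64 and 7.69 and CsA at 7.75, 7.39 and 7.72. Under CsA every 48 h array was below every 12 h array, and the change of -0.38 (SE 0.12) just missed the threshold (limma, adjusted p = 0.054). It passed under 2 of 21 alternatives, among them without CsA 48 h replicate 3, at -0.43 (adjusted p = 0.025). Under the others the adjusted p reached 0.69. The probe sets of NFATC3 did not move alike: 2 others changed by -0.09 and -0.34 with time under CsA, and another by 0.50 in the opposite direction (adjusted p = 0.090 over all probe sets). The direction thus differed between probe sets of the gene.

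NFAT5, which drives genes for osmolyte uptake and synthesis in the salty kidney medulla, had higher means at 48 h in all of its probe sets. It was at 10.61, 10.70 and 10.45 in control 12 h, at 10.80, 10.66 and 10.60 in CsA 12 h, at 11.38, 11.81 and 11.22 in control 48 h and at 11.38, 11.75 and 11.31 in CsA 48 h. All 48 h arrays were above all 12 h arrays, and the treatments overlapped at each time. The rise was 0.88 (SE 0.17, 1.84-fold) in control (limma, adjusted p = 0.0061) and 0.79 (SE 0.17, 1.73-fold) under CsA (adjusted p = 0.016). The call under CsA was lost without CsA 12 h replicate 2 (0.78, adjusted p = 0.055), CsA 12 h replicate 3 (0.74, 0.065) or CsA 48 h replicate 2 (0.65, 0.051). The call in control held under each of the 21 alternatives. The other probe sets of NFAT5 rose as well, by 0.98 and 1.58 in control and by 0.91 and 1.47 under CsA, each with an adjusted p below 0.05 over all probe sets. In the first probe set CsA minus control was 0.10 (SE 0.17) at 12 h and 0.01 (SE 0.17) at 48 h, with 95% confidence intervals from -0.27 to 0.48 and from -0.36 to 0.38. The difference between its rises was -0.09 (SE 0.24), with an interval from -0.62 to 0.43. The other probe sets had the opposite sign, with -0.16 and -0.03 at 12 h and -0.22 and -0.14 at 48 h, none of them called.

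**Figure D3:**
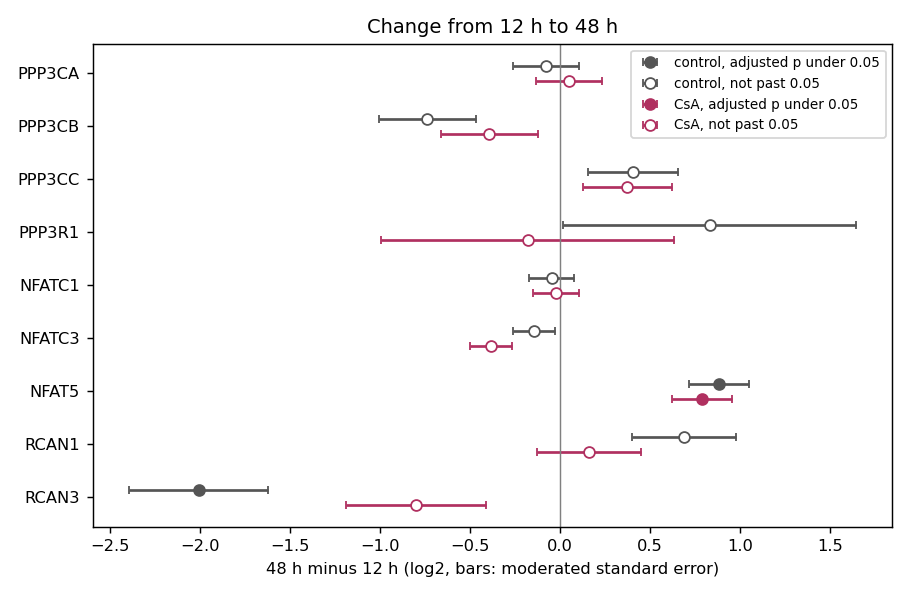
Change from 12 h to 48 h (horizontal axis, log2) of the 9 tested genes in control (grey) and under CsA (red). Points are limma estimates, bars the moderated standard error and filled points have an adjusted p below 0.05: NFAT5 in both treatments (0.88 and 0.79) and RCAN3 in control (-2.01).

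RCAN1 and RCAN3 are the regulators of calcineurin in the set. RefSeq (GRCh38.p14) lists 6 start sites for RCAN1 and 3 for RCAN3 with a window of 300 bases, 250 before and 50 after the start. Windows were searched for GGAAA, the core of NFAT binding sites, on both strands (GGAAA or TTTCC, in capitals). One RCAN1 window, chr21:34526773-34527072 on the minus strand, holds 5 matches, a number reached by 0.740% of 35116 RefSeq promoter windows. It is the richest of the 6 RCAN1 windows, of which the others hold 0, 0, 0, 1 and 1, so the share for a single window is not a measure of how unusual it is for a gene. The most upstream RCAN1 window (chr21:34615064-34615363, minus strand) holds 0, and the first RCAN3 window (chr1:24502586-24502885, plus strand) holds 1, as do both other RCAN3 windows and, with at least 1, 61.2% of all windows. The 3 are shown because RCAN1 has a promoter inside the gene known to answer to NFAT, and because the means of RCAN1 (not past the threshold) and RCAN3 moved in opposite directions with time in control.
RCAN1 upstream window: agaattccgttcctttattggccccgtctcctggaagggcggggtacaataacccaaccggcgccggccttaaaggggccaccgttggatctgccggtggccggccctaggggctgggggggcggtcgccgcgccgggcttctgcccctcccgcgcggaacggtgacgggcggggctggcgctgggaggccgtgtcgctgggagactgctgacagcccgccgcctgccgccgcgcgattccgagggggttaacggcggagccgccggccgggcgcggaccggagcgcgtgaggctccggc
RCAN1 window with 5 matches: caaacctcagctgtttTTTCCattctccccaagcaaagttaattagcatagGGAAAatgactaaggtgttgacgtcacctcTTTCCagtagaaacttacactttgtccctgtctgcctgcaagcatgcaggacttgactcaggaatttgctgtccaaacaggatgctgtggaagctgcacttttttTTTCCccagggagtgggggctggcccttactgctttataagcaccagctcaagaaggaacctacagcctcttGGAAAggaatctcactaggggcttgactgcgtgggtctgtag
RCAN3 first window: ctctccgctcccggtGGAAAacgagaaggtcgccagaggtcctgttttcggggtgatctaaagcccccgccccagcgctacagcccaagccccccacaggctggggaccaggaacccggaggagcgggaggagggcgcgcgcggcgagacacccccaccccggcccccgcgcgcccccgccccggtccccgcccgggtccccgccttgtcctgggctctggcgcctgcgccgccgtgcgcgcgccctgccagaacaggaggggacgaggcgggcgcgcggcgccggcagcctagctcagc
The array does not tie a probe set to a start site in the tables used here, so the values below cannot be assigned to one of these windows.

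RCAN1 was at 8.06, 7.79 and 8.21 in control 12 h and at 8.23, 8.04 and 7.96 in CsA 12 h, which overlap. The pairs at 12 h differed by 0.17, 0.25 and -0.25, with a mean of 0.06 and a 95% confidence interval from -0.59 to 0.70. At 48 h control was at 8.62, 8.72 and 8.79, above all 12 h controls. CsA 48 h was at 8.48, 8.82 and 7.41, so that replicates 1 and 2 were near the controls and replicate 3 was below every other array. The pairs at 48 h differed by -0.13, 0.10 and -1.39. The mean of -0.47 (SE 0.29) was not called (limma, adjusted p = 0.999), and it was -0.02 without the replicate 3 arrays of 48 h. The change with time in control, 0.69 (SE 0.29), missed the threshold (adjusted p = 0.0999). It passed under 3 of 21 alternatives, among them leaving CsA 48 h replicate 3 out of the estimate of spread (adjusted p = 0.0042). Under CsA the change was 0.16 (SE 0.29, adjusted p = 0.73). It was 0.58 without CsA 48 h replicate 3 (adjusted p = 0.016) and -0.13 without CsA 48 h replicate 2 (adjusted p = 0.79).

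A second RCAN1 probe set past the floor rose by 0.82 (SE 0.26) in control (limma, adjusted p = 0.045 over all probe sets), and its change under CsA was 0.04. At 12 h this probe set was at 4.17, 5.07 and 5.06 in control and at 5.07, 4.76 and 5.06 in CsA. Control 12 h replicate 1 was its lowest array, and the rise without that array was not computed. It was at 5.11, 5.71 and 5.92 in control 48 h and at 4.99, 5.07 and 4.96 in CsA 48 h, so that here CsA lay below control on all arrays. Its pairs at 48 h differed by -0.12, -0.65 and -0.97, and the mean of -0.58 (SE 0.26) was not called (adjusted p = 1.00 over all probe sets). Both probe sets thus had lower means in CsA than in control at 48 h, the first through replicate 3 and the second in all pairs.

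RCAN3 had the largest mean change with time of the members. It was at 6.05, 5.98 and 6.68 in control 12 h and at 6.10, 5.82 and 6.60 in CsA 12 h, and the pairs differed by 0.05, -0.16 and -0.08. In control 48 h it was at 4.38, 3.73 and 4.58, below every 12 h array. In CsA 48 h it was at 5.44, 4.55 and 6.13, a mean between those of control 48 h and the 12 h groups, with arrays that overlap both. The change with time in control was -2.01 (SE 0.39), a 4.03-fold decrease (limma, adjusted p = 0.0064), and the call held under each of the 21 alternatives. Control 48 h replicate 2 lay below the floor of 4, and without that array the change was -1.76. Under CsA the change was -0.80 (SE 0.39, adjusted p = 0.18), and it was called under 2 of 21 alternatives. It was -1.18 without CsA 48 h replicate 3 (adjusted p = 0.027) and -0.39 without CsA 48 h replicate 2 (adjusted p = 0.48).

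At 48 h CsA was above control in all 3 pairs of RCAN3, by 1.06, 0.82 and 1.55. The mean was 1.14 (SE 0.39), or 2.21-fold, with a 95% confidence interval from 0.29 to 2.00. The arrays of the groups overlapped by 1 pair of values, control replicate 3 at 4.58 and CsA replicate 2 at 4.55. The difference was not called by limma after adjustment over all genes (adjusted p = 0.999). With the replicate block it ranked at number 2 of 10508 genes by p and still was not called (SE 0.14, adjusted p = 0.25). The difference between the CsA effects of the 2 times was 1.21 (SE 0.55) and was not called without the block (adjusted p = 1.00) or with it (0.32). The difference at 48 h was 0.77 without CsA 48 h replicate 3 and 0.94 without both replicate 3 arrays of that time.

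The other RCAN3 probe sets did not repeat the difference at 48 h. The second, which did not pass the filter, was at 3.26, 3.17 and 3.88 in control 48 h and at 2.97, 3.08 and 2.97 in CsA 48 h, all below the floor. Its pairs at 48 h differed by -0.28, -0.09 and -0.91. It was at 3.64, 3.54 and 5.12 in control 12 h and at 3.74, 3.996 and 5.00 in CsA 12 h. Only the 2 replicate 3 arrays of 12 h were above the floor. Its means were lower at 48 h in both treatments, but values under the floor are no check of the first probe set. The third lay between 2.57 and 2.69. With the mean of all probe sets in place of the brightest, RCAN3 differed by 0.24 between CsA and control at 48 h, and by -0.90 between 48 h and 12 h in control (adjusted p = 0.024).

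**Figure D4:**
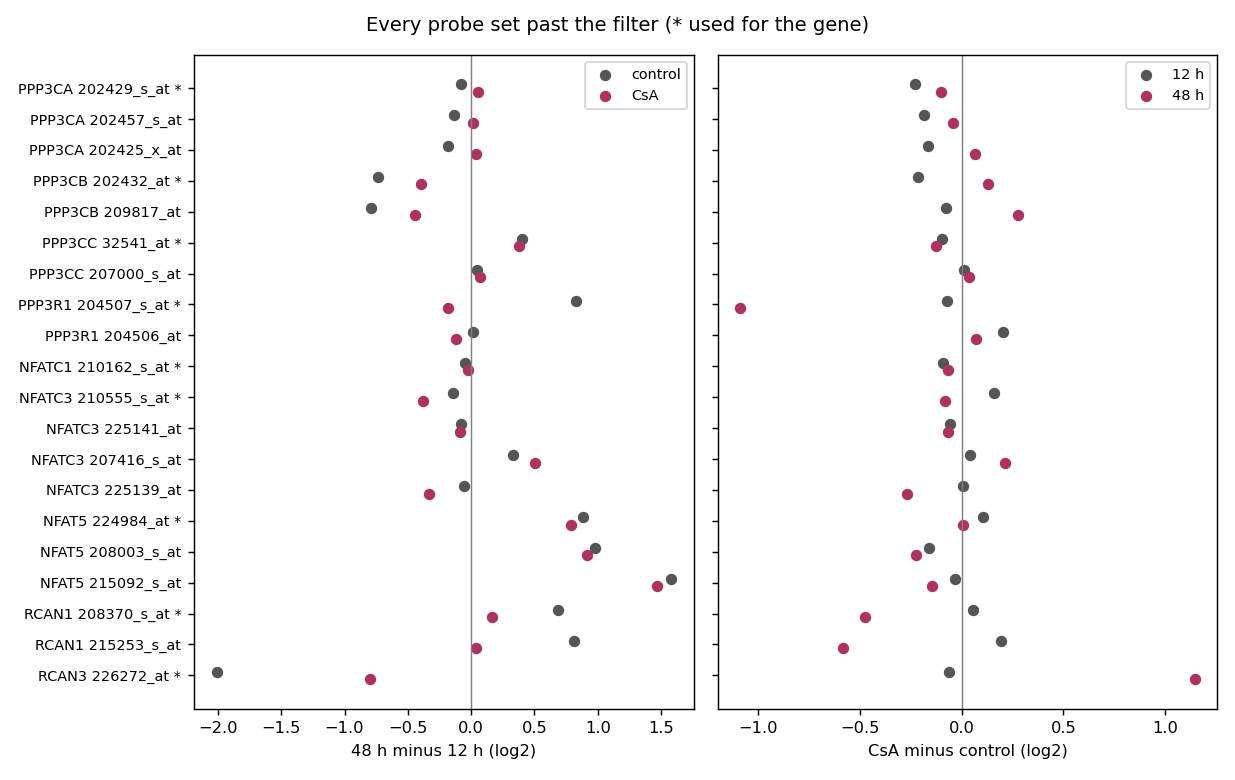
Changes of all 20 member probe sets past the floor (rows, probe set used for the gene marked with *): 48 h minus 12 h in control and under CsA (left) and CsA minus control at 12 h and 48 h (right), both in log2. The NFAT5, PPP3CB and RCAN1 probe sets have the same sign of change with time, while 1 of 4 NFATC3 probe sets runs opposite to the rest.

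Counted over the set, limma called 0 of 9 members for CsA against control at 12 h, at 48 h and in the difference between the times, where it called 0% of all 10508 genes in each. At an unadjusted p below 0.05 it had 0, 1 (RCAN3) and 0 of the 9 members, beside 138, 265 and 162 of the 10508 genes. With the replicate block it again called 0 members, beside 3 genes at 12 h (0.0285%: the ER chaperone cofactor DNAJB9, the ER stress factor CREB3L2 and MANF, named after their values were seen) and none at 48 h or in the difference. DNAJB9 went from 8.57 ± 0.29 in control to 10.02 ± 0.25 in CsA at 12 h (SD, n = 3). At an unadjusted p below 0.05 the block gave 2 of 9 members at 12 h (PPP3CA and PPP3CB) and 2 at 48 h (PPP3R1 and RCAN3). In the difference it gave 3 (PPP3CB, PPP3R1 and RCAN3). Over all 10508 genes the counts were 765, 1297 and 961. The members' shares were larger than these, but they rest on 2 or 3 genes and were not tested as a set. The same sign in all 3 pairs was seen for 3 of 9 members at 12 h, beside 41.3% of all genes, and for 2 of 9 at 48 h, beside 29.5%. At 48 h no member had groups without overlap, beside 4.49% of genes. The members' median difference was -0.07 at 12 h and -0.08 at 48 h, with -0.01 and -0.02 over all genes tested.

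With time, limma called 2 of 9 members in control, NFAT5 higher and RCAN3 lower, where 26.2% of all genes were called. Under CsA it called 1 of 9, NFAT5, beside 14.4%. The 12 h and 48 h arrays did not overlap for 5 of 9 members in control (PPP3CC, NFAT5 and RCAN1 higher, PPP3CB and RCAN3 lower), beside 50.1% of genes. Under CsA they did not overlap for 2 of 9 (NFAT5 higher, NFATC3 lower), beside 35%. Each of these counts is near or below the share over all genes. With time in control limma also called 2 of 6 tested proximal tubule or HK-2 markers lower, KRT8 (-0.60, adjusted p = 0.035) and VIM (-0.36, adjusted p = 0.043), and 1 of 5 fibroblast or pericyte markers higher, RGS5 (1.14, adjusted p = 0.047). None of these was called under CsA. The summed log2 level of the proximal tubule and HK-2 markers ranged from 95.3 to 95.9 in control 12 h, 95.2 to 96.0 in CsA 12 h, 92.5 to 94.9 in control 48 h and 92.4 to 95.9 in CsA 48 h. That of the fibroblast and pericyte markers ranged from 47.7 to 49.4, 47.6 to 48.9, 47.1 to 50.4 and 45.7 to 50.3 in the same order, and their part in the changes with time was not tested. The CsA comparison and the comparison of times share arrays, so they are not independent of each other.

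Across the 12 arrays NFAT5 and RCAN3 ran opposite to each other (r = -0.86), as did RCAN1 and RCAN3 (-0.78) and NFATC3 and NFAT5 (-0.80), while RCAN1 ran with PPP3CC (0.78) and PPP3R1 (0.76). These correlations describe 12 arrays in 4 groups, which share the step from 12 h to 48 h, and carry no test. By the same measure the genes most like NFAT5 were CLCN7 (r = 0.97), PELI2 (0.97) and ADM (0.97). Those most like RCAN3 were ANP32A, SF3B5 and NAB1 (each 0.96). RCAN1 was most like LMO4 (0.96), RCHY1 (0.95) and LETM2 (0.95), PPP3CB most like NDUFA2, RTL8C and TGM2 (each 0.98), and PPP3R1 most like KIN (0.98), RIOK2 (0.97) and ATOSB (0.97). For PPP3CA (SNX3, 0.89), PPP3CC (N4BP2L2, 0.92) and NFATC3 (EIF3I, 0.93) the closest gene was less alike, and for NFATC1 no gene exceeded 0.79 (RADX).

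Genes around the pathway were read from 6 lists with 85 entries. None of their tested genes was called for CsA against control at either time, without or with the replicate block. The calcium entry and release list holds calcium pumps as well as channels. In control 9 of its 12 tested genes had a higher mean at 48 h, and 3 a lower one. In control 4 of the 12 were called, beside 26.2% of all genes, and all 4 rose: the store-operated channel subunit ORAI3 (0.75), the IP3 receptors ITPR2 (0.62) and ITPR3 (0.41), and the cation channel TRPC1 (0.47). The pumps ATP2A2 (0.43), ATP2B1 (0.37) and ATP2B4 (0.32) were among the 9 and were not called. The list's median change, with these pumps included, was 0.34, beside 0.01 over all genes. Under CsA ITPR3 (0.50) and TRPC1 (0.50) were the 2 called, beside 14.4% of all genes, and both rose, with a list median of 0.22. These calls were sensitive to single arrays and settings: in control they were lost under 7 to 15 of 21 alternatives, with adjusted p-values up to 0.36.

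Among 11 tested NFAT kinases and export factors, DYRK1A, a kinase that primes NFAT for export, rose by 0.56 (SE 0.11) in control (limma, adjusted p = 0.0061) and by 0.46 (SE 0.11) under CsA (adjusted p = 0.021). In control DYRK2 (-0.65) and the exportin XPO1 (-0.37) fell. The list thus had 1 gene called higher and 2 lower of 11 in control, where 26.2% of all genes were called. Under CsA it had 1 of 11, beside 14.4%. The call of DYRK1A in control was lost with the mean of its probe sets only (0.11, adjusted p = 0.16), and under CsA it was lost under 6 of 21 alternatives. Those of DYRK2 and XPO1 were each lost under 7. The list's median was 0.04 in control and -0.04 under CsA.

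Of 13 other tested calcineurin substrates, MEF2A, a transcription factor that calcineurin can activate, rose by 1.36 (SE 0.16) in control (adjusted p = 0.0012) and by 1.00 (SE 0.16) under CsA (adjusted p = 0.0059), and both calls held under all 21 alternatives. No other gene of that list was called, where 26.2% of all genes were called in control and 14.4% under CsA. Of 5 tested calcineurin partners, NFATC2IP, which binds NFATC2, changed by -0.62 with time in control (adjusted p = 0.035), a call lost under 8 of 21 alternatives. RCAN2 and NFATC2 were among the 10 genes of that list that did not enter the test.

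Of 15 genes known as NFATC targets, 3 passed the filter, and the cytokines of lymphocytes on that list (IL2, IL4 and IFNG) did not. VEGFA rose by 2.25 (SE 0.43) with time in control (adjusted p = 0.0064, held under all 21 alternatives), and its change under CsA was 1.37 (SE 0.43, adjusted p = 0.057). CXCL8 and CCN2 changed by 0.00 and -0.16 in control and were not called, where 26.2% of all genes were. At 48 h CsA minus control was -0.46 for VEGFA, -0.51 for CXCL8 and -0.54 for CCN2, none of them called. The pairs at 48 h differed by 0.03, -0.04 and -1.39 for VEGFA, so that replicate 3 alone set its mean, by -0.59, -0.62 and -0.32 for CXCL8 and by -0.84, -0.08 and -0.70 for CCN2. At 12 h VEGFA was at 0.41 (SE 0.43, not called), with pairs of 0.42, 0.32 and 0.49. Of all genes, 41.3% had the same sign in all 3 pairs at 12 h and 29.5% at 48 h.

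Of 8 tested genes known as NFAT5 targets, 3 rose and 2 fell with time in control, where 26.2% of all genes were called. The myo-inositol transporter SLC5A3 rose by 1.77 (SE 0.48, adjusted p = 0.024), the amino acid transporter SLC38A2 by 0.70 (SE 0.13, adjusted p = 0.0053) and the sphingomyelinase SMPD1 by 0.92 (SE 0.14, adjusted p = 0.0024). The kinase SGK1 fell by 2.09 (SE 0.54, adjusted p = 0.019) and the taurine transporter SLC6A6 by 1.09 (SE 0.34, adjusted p = 0.037). Under CsA SMPD1 (1.07), SLC38A2 (0.45) and PNPLA6 (0.47) rose, where 14.4% of all genes were called. The calls of SMPD1 in both treatments and of SLC38A2 in control held under all alternatives, and each of the others was lost under 4 or more. The list's median was -0.03 in control and 0.17 under CsA.

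**Figure D5:**
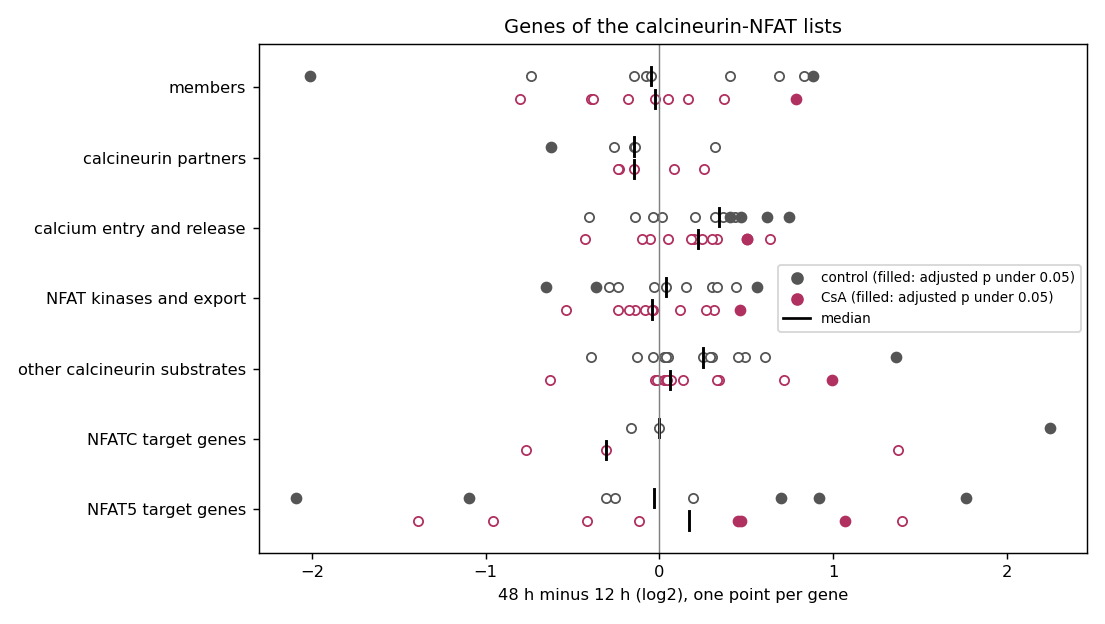
Change from 12 h to 48 h (horizontal axis, log2) of the tested genes of the members and the 6 lists (rows), in control (grey) and under CsA (red). Points are genes, filled points have an adjusted p below 0.05 and black bars are list medians. VEGFA (2.25), SLC5A3 (1.77) and MEF2A (1.36) lie farthest to the right in control, and SGK1 (-2.09) and RCAN3 (-2.01) farthest to the left.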

How the data were processed

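The deposited values are log2 expression values per probe set, made by the authors with GCRMA per the submitters' processing notes. The scale was read from the values (0.68 to 16.0). The GCRMA version and its options are not stated in these sources. GCRMA adjusts background, normalises by quantiles and summarises probes, and the arrays had closely similar distributions of values. No further normalization was applied. Of 54675 probe sets, 62 controls were left out, and 41091 had 1 gene symbol (1801 several, 11721 none). Per gene the probe set with the highest mean was used.

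Group means of all 12 arrays were fitted with limma 3.58.1 in R 4.3.3 (8 residual degrees of freedom, eBayes, Benjamini-Hochberg over 10508 genes, all tests two-sided). Adding the replicate number as a block (within a time) left 4 residual degrees of freedom. The numbers pair CsA and control arrays by the data: r was 0.37, 0.53 and 0.59 at 12 h and 0.78, 0.54 and 0.74 at 48 h. Between times same-numbered arrays did not pair (r between -0.14 and 0.23). Since the labels do not say whether replicates were separate cultures, p-values measure the spread between these arrays. The script was tested on simulated data.

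Named genes were the members, called genes of the 6 lists (up to 4 per list and comparison by p) and the 3 genes most like each member. Named outside this rule, after their values were seen, were SLC6A6, CXCL8, CCN2, MANF, the pumps ATP2A2, ATP2B1 and ATP2B4, and the markers. DNAJB9, HSPA5 and CREB3L2 were listed as genes these samples are known to move. The members and lists were chosen with earlier results of these data known. Alternatives were other filters, probe set rules, scalings, moderation, array weights, the block, single times and left-out arrays or pairs.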

Additional observations from a re-analysis of the deposited data

How the results depend on the processing

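The number of arrays limits the precision, since arrays have no read depth. Over 1312 values of the members under alternatives, 1221 kept their direction and side of the threshold, 71 uncalled values changed sign, 3 lost a call (NFAT5 under CsA, without 1 array) and 17 gained one. The 17 were changes with time of PPP3CB, PPP3R1 and RCAN1 in control and of PPP3CB, NFATC3, RCAN1 and RCAN3 under CsA, with array weights, the mean of probe sets or without 1 of 3 48 h arrays. No called value reversed. Of the 1312 values, 320, 320 and 302 were for CsA at 12 h, at 48 h and for the difference between the times. In those comparisons few or no settings called any gene, so keeping the side of the threshold was close to fixed. Leaving out an array of a group outside a comparison kept its estimate and altered only the spread. The count of 1221 is therefore no measure of how firm the values are. With weights PPP3R1 rose by 1.13 in control (adjusted p = 0.034).

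For CsA against control at 12 h the count of called genes, 0, became 1 without the filter, 3 with the replicate block, 8 with the block, variance trend and robust moderation, 1 on the 12 h arrays alone and 5 on these with the block. With the block and without both 48 h arrays of replicate 3, a setting chosen after seeing the data, it was 39. For the difference between the times, 0 became 2 with the block, trend and robust moderation and 6 with the block without those arrays. No setting called a gene at 48 h, and no member was called for CsA in any setting. The block changed no call of a member.

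In control 2756 genes were called with time, 4981 with array weights and between 1322 (without control 12 h replicate 3) and 4039 (without CsA 48 h replicate 3) when 1 array was left out. Under CsA the 1508 genes became 988 without the filter, 4291 with weights, 968 with the block within treatment, and between 432 (without CsA 12 h replicate 3) and 3885 (without CsA 48 h replicate 3). The cause of these moves was not tested.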
